A study of Mus musculus with 10 samples.

Results

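Glutamate receptors and the auxiliary subunits that travel with them were examined in the PFC of *Zbtb16* KO and WT mice. The set held 32 genes, chosen by gene family and not by their fold change: 4 AMPA, 6 NMDA, 5 kainate, 1 delta and 6 metabotropic receptor genes, and 10 genes of auxiliary subunits (6 TARPs, 2 cornichons and both *Neto* genes). All 32 of 32 were found among the 22000 genes of the count table, and all 32 were among the 14344 genes that passed the filter on low counts, with 205 to 39678 counts per gene and library. Each class was compared between KO and WT mice.

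Glutamate is the main excitatory transmitter of the cortex. AMPA, NMDA, kainate and delta receptors are tetramers that belong to the ionotropic family; AMPA receptors carry the fast synaptic current, and NMDA receptors pass calcium when glutamate release and depolarisation coincide, which is the trigger for many forms of synaptic plasticity. Metabotropic receptors act through G proteins and set excitability and release. TARPs and cornichons bind AMPA receptors, bring them to the surface and slow their gating, and the Neto proteins do similar work for kainate receptors.

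RNA-seq was done on the PFC of 5 KO and 5 WT mice, all 7 weeks old and given as male, and each mouse gave 1 stranded library. KO mice carried *lu*, a nonsense point mutation of *Zbtb16*, on both alleles (strain B6.C3-Zbtb16lu/J), and the control mice were *Zbtb16* WT. The mutation is present in every cell type from the start of development. No treatment is named for either group, and whether the sequenced KO and WT mice were littermates is not given. Because a nonsense allele leaves the gene in place, its transcript can still be counted.

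Libraries held 30220122 to 51231439 counts. Thus 3 counts, taken as the floor of detection, came to 0.0586 to 0.0993 CPM (counts per 1000000 counts of a library) before scaling. All other CPM are TMM-scaled. The floor covers counting error only. KO mouse 3 had 1 count over 4 Y-linked genes, against 4376 to 8182 in the other mice, and so went against its label of male. It was kept under its label, and values without it are given. RIN, the RNA integrity number, ran from 8.1 to 9.7 in KO and from 8.2 to 9.8 in WT mice. *Zbtb16* itself was at 47.4 ± 4.96 CPM in KO and 79.0 ± 7.23 CPM in WT mice (SD, n = 5 each). It fell without overlap, to 60.0% of its WT level (log2 fold change -0.67, SE 0.06, edgeR adjusted p = 2.8e-05). *Slc17a7*, the vesicular transporter gene of cortical glutamatergic neurons, was at 1369 to 1880.3 CPM over the 10 mice, and 7 marker genes of striatal neurons summed to 314 to 471 CPM in KO and 285 to 573 CPM in WT mice.

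In WT mice the classes differed widely in level. Levels of different genes are compared here only as CPM per kb of merged exon. *Cnih2*, a cornichon, stood highest at 112 ± 9.69 CPM per kb (SD, n = 5), followed by the TARP *Cacng7* at 76.5 ± 4.90 and by *Grin1*, the subunit that every NMDA receptor needs, at 61.3 ± 3.71 CPM per kb. *Cacng5*, at 1.71 ± 0.404 CPM per kb, stood lowest. The order at the top depended on the length used: per kb of the longest transcript *Grin1* came first at 139 CPM, *Cnih2* followed at 114 CPM and *Cacng7* at 84.4 CPM. The ranges over the WT mice overlapped in 23 of the 31 neighbouring pairs in the order by merged exons. Both genes of a pair come from the same mice, and their order within each mouse was not compared.

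Within the AMPA class *Gria1* (52.2 ± 4.82 CPM per kb) and *Gria2* (48.3 ± 3.48) overlapped, *Gria3* was at 35.7 ± 1.43 and *Gria4* at 21.3 ± 0.763 CPM per kb (SD, n = 5). With the longest transcript in place of merged exons, *Gria2* came first of the 4 and *Gria1* came after *Gria3*. *Gria2* carries the subunit that makes the channel impermeable to calcium once its transcript is edited. Among the NMDA genes, *Grin2b* (23.6 ± 0.800 CPM per kb) lay above *Grin2a* (14.0 ± 0.472) and *Grin2c* (8.95 ± 1.14). The remaining NMDA genes, *Grin3a* and *Grin2d*, were at 3.29 ± 0.348 and 2.04 ± 0.304 CPM per kb, and the WT mice of these overlapped with those of neighbouring genes of other classes.

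*Grik5*, whose high-affinity subunit needs a partner such as the *Grik2* product to form a channel, led the kainate genes at 47.0 ± 2.68 CPM per kb, and *Grik3* followed at 16.4 ± 1.47 (SD, n = 5). *Grik2*, *Grik4* and *Grik1* were between 1.92 and 4.45 CPM per kb. The metabotropic genes ran from *Grm3* at 23.2 ± 1.84 CPM per kb and *Grm5* at 18.9 ± 0.917 down to *Grm8* at 2.59 ± 0.305. Per kb of the longest transcript *Grm5* (24.1 CPM) came just above *Grm3* (23.2 CPM). The delta receptor gene *Grid1* was at 10.8 ± 0.680, *Neto2* at 15.2 ± 0.997 and *Neto1* at 9.80 ± 0.273 CPM per kb.

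**Figure D1:**
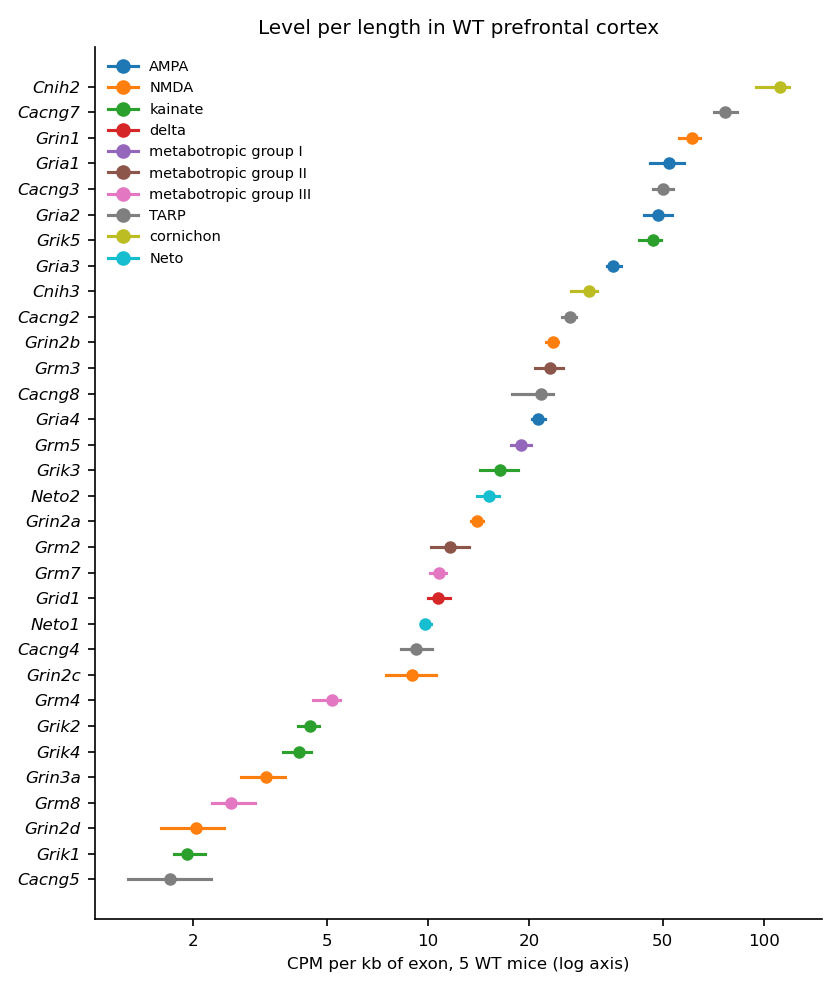
Level of each of the 32 genes in WT mice in CPM per kb of merged exon (horizontal log axis), with the mean as a point, the lowest and highest of 5 WT mice as a line, and receptor class as colour. By merged exons *Cnih2*, *Cacng7* and *Grin1* stand at the top, and *Cacng5*, *Grik1* and *Grin2d* at the bottom. Per kb of the longest transcript *Grin1* stands above *Cnih2* and *Cacng7*.

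The comparison of KO with WT mice asked whether loss of *Zbtb16* goes with altered receptor transcripts, class by class. Genotypes were compared by edgeR's quasi-likelihood test with 3 surrogate variables, and p-values were adjusted over the 14344 genes by the Benjamini-Hochberg method. By this test 0 of the 32 genes passed an adjusted p of 0.05, where 0.844% of all genes did. DESeq2 called 1 of them, *Cnih2*, and 229 of the 14344 genes tested, where the edgeR test called 121. At an unadjusted p under 0.05 there were 5 genes higher in KO mice, 15.6% of the 32 against 5.51% of all genes, and 5 lower, 15.6% against 5.1%. The genotypes were free of overlap in 2 of the 32 genes, 6.25%, against 1.58% of all genes. The split by direction moved with single mice and with the fit. It was 1 higher and 5 lower without KO mouse 4, 2 higher and 7 lower without WT mouse 5, and 6 higher and 1 lower among the mice with a RIN of 9.5 or above. Of all genes, 8.8%, 9.09% and 6.85% were under 0.05 in these fits in turn, in either direction, against 10.6% in the main fit. *Cnih2* and *Gria4* were under 0.05 in each of the 21 alternatives tried. Without the surrogate variables 8 genes were under it, against 8.02% of all genes. *Gria1* and *Cacng8* were then among them, and *Grin1*, *Grin2a*, *Grin3a* and *Grik3* were not. No test was made of the set as a whole, and these shares are given as a description.

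The differences were small in every class. The median log2 fold change, KO minus WT, was 0.01 over the 32 genes and -0.00 over all genes tested, 17 of the 32 were above 0, and the largest in size was 0.19 for *Cacng5*. None of the 32 had a log2 fold change beyond 0.2 in size, a size passed by 2150 of the 14344 genes tested. Those genes include ones with far fewer counts than any of the 32, so the sets are not alike. The 95% confidence intervals reached from -0.31 at the lowest to 0.50 at the highest. A p that misses the threshold does not show that a level was the same in both genotypes. In bulk tissue, fewer cells of a type and less RNA per cell cannot be told apart.

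**Figure D2:**
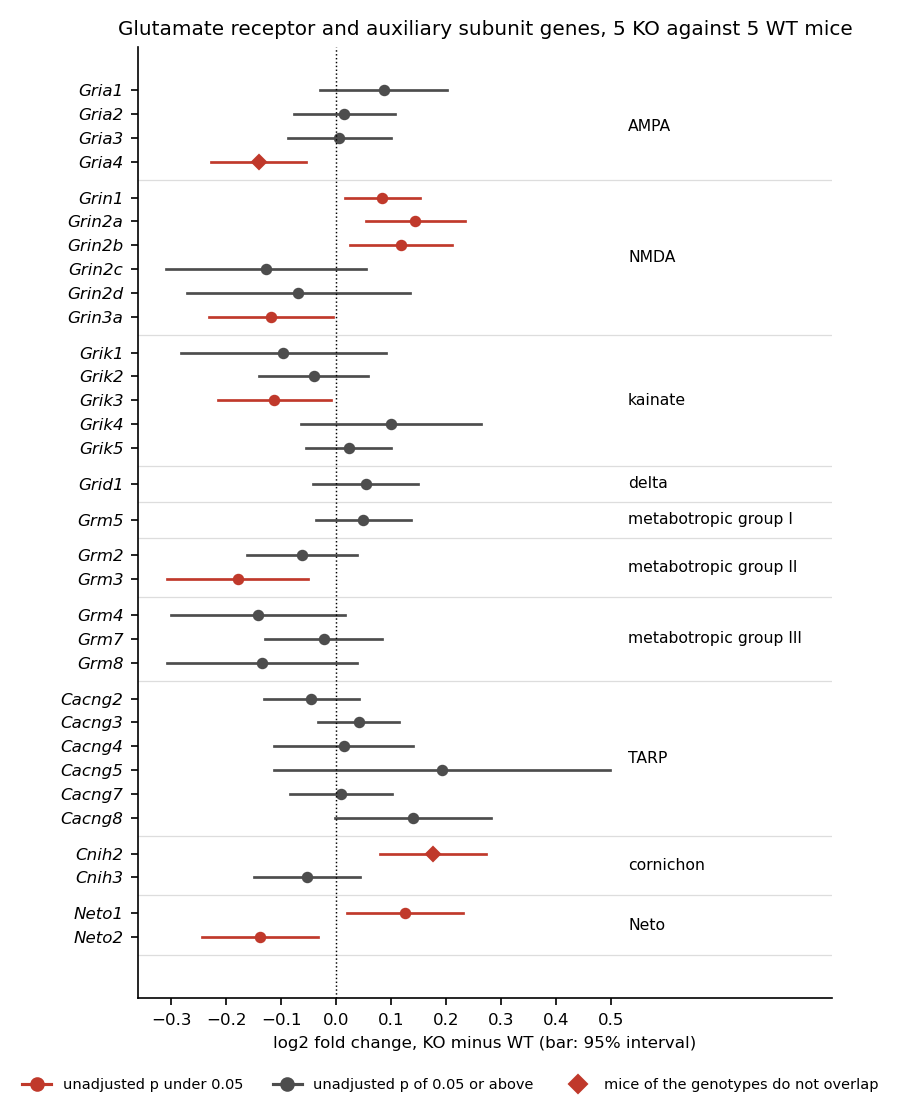
Log2 fold change of each gene, KO minus WT (horizontal axis), with its 95% confidence interval as a bar, grouped by receptor class down the vertical axis, from 5 KO and 5 WT mice. The 10 genes with an unadjusted p under 0.05 are red, and diamonds mark *Cnih2* and *Gria4*, whose mice did not overlap between genotypes.

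Among the AMPA receptor genes *Gria4* differed most. Its product is the subunit typical of fast-spiking interneurons and of thalamic circuits. The WT mice 1 to 5 had 134, 141, 137, 132 and 128 CPM of *Gria4*, and the KO mice 1 to 5 had 127, 123, 115, 119.6 and 120.0 CPM. Every KO mouse was thus below every WT mouse, the nearest being KO mouse 1 and WT mouse 5. The log2 fold change was -0.14 (SE 0.04, 95% interval -0.23 to -0.05), the unadjusted p was 0.00315 and the edgeR adjusted p was 0.15. Among mice with a RIN of 9.5 or above (3 KO, 3 WT) the log2 ratio of the means was -0.13, and among the others (2 KO, 2 WT) it was -0.20.

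*Gria1*, the activity-recruited AMPA subunit gene with the highest level of its class per kb of merged exon, though not per kb of the longest transcript, was at 294, 278, 350.0, 332 and 323 CPM in WT mice 1 to 5 and at 306, 354, 369, 362 and 346 CPM in KO mice 1 to 5. These groups overlapped, and its log2 fold change was 0.09 (95% interval -0.03 to 0.20, edgeR adjusted p = 0.631). *Gria2* and *Gria3* had log2 fold changes of 0.01 each, and *Gria2* was at -0.02 without the surrogate variables. *Gria2* ran from 698 to 773 CPM in KO and from 686 to 831 CPM in WT mice, and *Gria3* from 326 to 392.3 CPM in KO and from 336 to 372 CPM in WT mice. Summed over the 4 AMPA genes, KO mice had 1562 ± 55.2 CPM and WT mice 1552 ± 69.0 CPM (SD, n = 5 each), with overlap.

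*Cnih2* had the lowest p of the 32 genes. Cornichon proteins were first known as escorts of secreted cargo out of the endoplasmic reticulum, and CNIH2 stays with AMPA receptors at the surface, where it slows their closing. WT mice 1 to 5 had 159, 130.0, 159, 163 and 154 CPM, and KO mice 1 to 5 had 173, 179, 181, 174 and 183 CPM. All 5 KO mice lay above all 5 WT mice and close together, whereas WT mouse 2 lay far below the rest. The log2 fold change was 0.18 (SE 0.05, 95% interval 0.08 to 0.27), the unadjusted p was 0.00137 and the edgeR adjusted p was 0.0948. Without WT mouse 2 the log2 fold change was 0.16 and the edgeR adjusted p was 0.0233. Without KO mouse 4 these values were 0.15 and 0.404, and without WT mouse 5 they were 0.15 and 0.396. The adjusted p of *Cnih2* was 0.0307 by DESeq2 and 0.387 by limma, which called 229 and 8 of the 14344 genes tested.

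The log2 ratio of the *Cnih2* means was 0.25 among mice with a RIN of 9.5 or above and 0.17 among the others. *Cnih2* shares 14 bases, 1.02% of its exons, with *Yif1a* on the other strand, and whether the counting used strand is not given in the sources used here, so reads from those bases are uncertain. Its paralogue *Cnih3* ran from 76.8 to 84.5 CPM in KO and from 73.2 to 87.5 CPM in WT mice and had a log2 fold change of -0.05 (edgeR adjusted p = 0.752). The TMM-scaled sum of both cornichon genes did not overlap between genotypes, at 251 to 267 CPM in KO and 212 to 249 CPM in WT mice. Without the TMM scaling factors, 0.987 for KO mouse 1 and 0.998 for WT mouse 4, KO mouse 1 falls below WT mouse 4 in this sum.

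The promoters of *Cnih2* and *Gria4* are shown because these are the only 2 of the 32 genes without overlap between the genotypes. *Cnih2* (ENSMUSG00000024873.7) lies on chromosome 19 from 5092868 to 5098521, and *Gria4* (ENSMUSG00000025892.16) on chromosome 9 from 4417896 to 4796234, both on the minus strand of GRCm38. Each window holds the 250 bases just upstream of the annotated start, at chr19:5098522-5098771 for *Cnih2* and chr9:4796235-4796484 for *Gria4*, from RefSeq on GRCm38.p6. They are written 5′ to 3′ on the minus strand, with capitals for matches on either strand to a GC box (GGGCGG) or a CCAAT box (CCAAT).
Cnih2: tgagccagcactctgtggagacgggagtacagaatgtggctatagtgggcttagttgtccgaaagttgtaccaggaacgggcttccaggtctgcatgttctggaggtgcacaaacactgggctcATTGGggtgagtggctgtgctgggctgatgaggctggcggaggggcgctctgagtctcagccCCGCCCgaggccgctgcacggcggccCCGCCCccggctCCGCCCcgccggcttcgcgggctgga
Gria4: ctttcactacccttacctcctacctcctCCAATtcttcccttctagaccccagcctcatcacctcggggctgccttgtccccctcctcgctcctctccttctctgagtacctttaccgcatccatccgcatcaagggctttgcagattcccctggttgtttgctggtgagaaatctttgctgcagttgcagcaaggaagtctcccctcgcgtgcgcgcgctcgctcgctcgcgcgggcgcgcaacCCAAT
*Cnih2* had 3 matches to the GC box and 1 to the CCAAT box, and its window was 65.6% G and C. *Gria4* had 0 matches to the GC box and 2 to the CCAAT box, at 58.8% G and C. Neither held the CRE (TGACGTCA) or the TATA box (TATAAA).

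RefSeq promoter entries were matched by symbol for 21 of the 32 genes, with 26 windows in all. The GC box was in 14 of these 26 windows, 53.8%, and the CCAAT box in 8, 30.8%, while 32.7% and 33.8% of all 32851 promoter windows of this length held them. No window of the 21 genes held the CRE or the TATA box, which 1.55% and 12.4% of all windows held. The median G and C content was 62.2% over the 26 windows and 52.4% over all. Such matches describe letters only.

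The TARPs, the long-known AMPA auxiliary subunits, gave no gene with an unadjusted p under 0.05, although *Cacng8* was under it in 9 of the 21 alternatives. Of the 6, 5 had a log2 fold change above 0, from 0.01 for *Cacng7* to 0.19 for *Cacng5*, and *Cacng2* (stargazin) was at -0.05. *Cacng7* and *Cacng4* lay so near 0 that their sign turned in some alternative fits, *Cacng7* to -0.03 without the surrogate variables. The largest TARP by level, *Cacng7*, was at 203, 189, 174, 176 and 192 CPM in WT and 189, 193, 173, 191 and 172 CPM in KO mice 1 to 5, which overlapped throughout. *Cacng8* came nearest to the threshold, with a log2 fold change of 0.14 (95% interval -0.00 to 0.28, edgeR adjusted p = 0.478). *Cacng8* ran from 52.9 to 60.9 CPM in KO and from 41.7 to 55.3 CPM in WT mice. *Cacng2*, *Cacng3* and *Cacng4* also overlapped between genotypes, with log2 fold changes of -0.05, 0.04 and 0.01 and edgeR adjusted p-values of 0.75 to 0.968. *Cacng5*, the least abundant of the 32 genes, ran from 6.80 to 10.2 CPM in KO and from 4.92 to 8.70 CPM in WT mice, and its 95% interval was the widest, -0.11 to 0.50. The sum of the 6 TARP genes was 562 ± 18.5 CPM in KO and 563 ± 14.5 CPM in WT mice (SD, n = 5 each).

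The NMDA class held 3 of the 5 genes that were higher at an unadjusted p under 0.05, *Grin1*, *Grin2a* and *Grin2b*. Without KO mouse 4 none of these 3 was under 0.05, and without WT mouse 5 *Grin2a* alone was. *Grin1* was at 628, 543, 612, 619 and 571 CPM in WT mice 1 to 5 and at 651, 584, 649, 621 and 671 CPM in KO mice 1 to 5. KO mice 1, 3 and 5 lay above every WT mouse, and KO mice 2 and 4 lay among them. Its log2 fold change was 0.08 (SE 0.03, unadjusted p = 0.0198, edgeR adjusted p = 0.338), and it was 0.04 without WT mouse 5.

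*Grin2a* and *Grin2b* encode the alternative glutamate-binding subunits, of which the *Grin2b* product dominates early in life and the *Grin2a* product gains with maturation. *Grin2a* was at 241, 261, 245, 257 and 248 CPM in WT and at 263, 273, 293, 287 and 231 CPM in KO mice 1 to 5. KO mice 1 to 4 lay above every WT mouse, but KO mouse 5 was the lowest of all 10. The log2 fold change of *Grin2a* was 0.14 (SE 0.04, unadjusted p = 0.00386, edgeR adjusted p = 0.164), without KO mouse 1 it was 0.20 with an edgeR adjusted p of 0.0409, and without KO mouse 4 it was 0.09 with an edgeR adjusted p of 0.611.

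*Grin2b* was at 557, 583, 608, 601 and 587 CPM in WT and at 586, 627, 691, 671 and 656 CPM in KO mice 1 to 5. KO mouse 1 lay within the WT range, and the other KO mice were above it. Its log2 fold change was 0.12 (SE 0.04, unadjusted p = 0.0157, edgeR adjusted p = 0.313). It ranged from 0.05 without KO mouse 4 to 0.18 without KO mouse 1.

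The other NMDA genes, *Grin2c*, *Grin2d* and *Grin3a*, had log2 fold changes of -0.13, -0.07 and -0.12. *Grin2c* ran from 36.1 to 50.2 CPM in KO and from 37.8 to 53.3 CPM in WT mice, and *Grin2d* from 12.03 to 14.6 CPM in KO and from 10.7 to 16.4 CPM in WT mice, both with overlap. *Grin3a*, whose product lowers the calcium passed by the receptor, had an unadjusted p of 0.0412 (edgeR adjusted p = 0.443). Its CPM were 41.2, 34.2, 46.1, 41.3 and 39.4 in WT and 37.9, 41.6, 39.7, 33.6 and 55.7 in KO mice 1 to 5, with KO mouse 5 far above the rest. The plain means stood the other way, 41.7 CPM in KO and 40.4 CPM in WT mice, and the log2 fold change was 0.05 without the surrogate variables.

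Summed over the 6 NMDA genes, WT mice 1 to 5 had 1534, 1469.6, 1569.7, 1579 and 1505 CPM, and KO mice 1 to 5 had 1593, 1590.4, 1729, 1664 and 1663 CPM. All KO mice lay above all WT mice in this TMM-scaled sum. Without the TMM scaling factors, 0.987 for KO mouse 1 and 0.998 for WT mouse 4, KO mouse 1 falls below WT mouse 4. The sum rests mostly on *Grin1* and *Grin2b* because CPM counts long and abundant transcripts more. The median log2 fold change of the 6 genes was 0.01, with 3 above and 3 below 0. Without the surrogate variables it was 0.07, with 5 of the 6 above 0.

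Of the 5 kainate receptor genes, *Grik3* had an unadjusted p under 0.05. Its CPM were 147, 129, 166, 146 and 147 in WT and 134, 134, 151, 136 and 143 in KO mice 1 to 5, so that the KO mice lay within the WT range. The log2 fold change was -0.11 (SE 0.05, unadjusted p = 0.0328, edgeR adjusted p = 0.409). It was -0.07 without the surrogate variables, and *Grik3* was under 0.05 in 12 of the 21 alternatives. *Grik5* was at 256, 219.9, 249.8, 246 and 241 CPM in WT and 253, 242, 242, 244 and 292 CPM in KO mice 1 to 5, and its log2 fold change was 0.02. *Grik1*, *Grik2* and *Grik4* had log2 fold changes of -0.10, -0.04 and 0.10, with edgeR adjusted p-values of 0.721 to 0.829. *Grik2* ran from 55.4 to 61.2 CPM in KO and from 54.6 to 62.8 CPM in WT mice, *Grik4* from 21.04 to 30.5 and from 22.2 to 26.8 CPM, and *Grik1* from 11.2 to 15.8 and from 11.8 to 14.6 CPM.

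The *Neto* genes, whose products are kainate receptor auxiliary subunits, stood in opposite directions. *Neto1* was at 79.5, 80.0, 81.9, 85.2 and 82.7 CPM in WT and at 86.0, 82.3, 98.7, 90.2 and 90.1 CPM in KO mice 1 to 5, with only KO mouse 2 within the WT range. *Neto2* was at 85.9, 100.2, 88.8, 98.5 and 93.6 CPM in WT and at 83.3, 80.8, 81.8, 91.4 and 72.9 CPM in KO mice 1 to 5, with only KO mouse 4 within the WT range. Their log2 fold changes were 0.13 (SE 0.05, edgeR adjusted p = 0.35) and -0.14 (SE 0.05, edgeR adjusted p = 0.292). The sum of the pair was 171 ± 9.08 CPM in KO and 175 ± 7.31 CPM in WT mice (SD, n = 5 each).

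The metabotropic genes of groups II and III, whose receptors lower cyclic AMP and act largely at release sites, all had negative log2 fold changes, 5 of 5, from -0.02 for *Grm7* to -0.18 for *Grm3*. *Grm3*, which is also made by astrocytes, was at 77.1, 63.6, 75.5, 68.5 and 68.3 CPM in WT and at 61.2, 63.0, 56.7, 67.8 and 70.1 CPM in KO mice 1 to 5. KO mice 1 to 3 lay below every WT mouse and the other KO mice among them. Its unadjusted p was 0.00934 and its edgeR adjusted p 0.25 (SE 0.06). *Grm4*, *Grm8*, *Grm2* and *Grm7* had log2 fold changes of -0.14, -0.14, -0.06 and -0.02 and edgeR adjusted p-values of 0.536 to 0.928. *Grm4* ran from 24.7 to 34.1 CPM in KO and from 27.3 to 32.7 CPM in WT mice, and *Grm8* from 20.4 to 26.2 CPM in KO and from 22.5 to 30.3 CPM in WT mice, both with overlap. Of these 4, *Grm2* had a higher plain mean in KO mice, 59.8 CPM against 57.0 CPM, and a log2 fold change of 0.07 without the surrogate variables, and *Grm7* changed sign when KO mouse 4 was left out (0.01).

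*Grm7*, the leading group III gene, was at 60.8, 66.5, 65.3, 65.9 and 59.8 CPM in WT and 65.5, 63.7, 62.1, 58.8 and 66.4 CPM in KO mice 1 to 5. *Grm5*, the group I receptor that raises calcium through phospholipase C, was at 181, 194, 192, 208 and 194 CPM in WT and 192, 207, 215, 201 and 209 CPM in KO mice 1 to 5. *Grid1*, which binds cerebellins, was at 61.4, 59.6, 67.0, 69.4 and 63.2 CPM in WT and 66.2, 72.0, 66.4, 68.1 and 70.3 CPM in KO mice 1 to 5. All of these overlapped between genotypes. *Grm5* and *Grid1* each had a log2 fold change of 0.05, with edgeR adjusted p-values of 0.738 and 0.740.

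**Figure D3:**
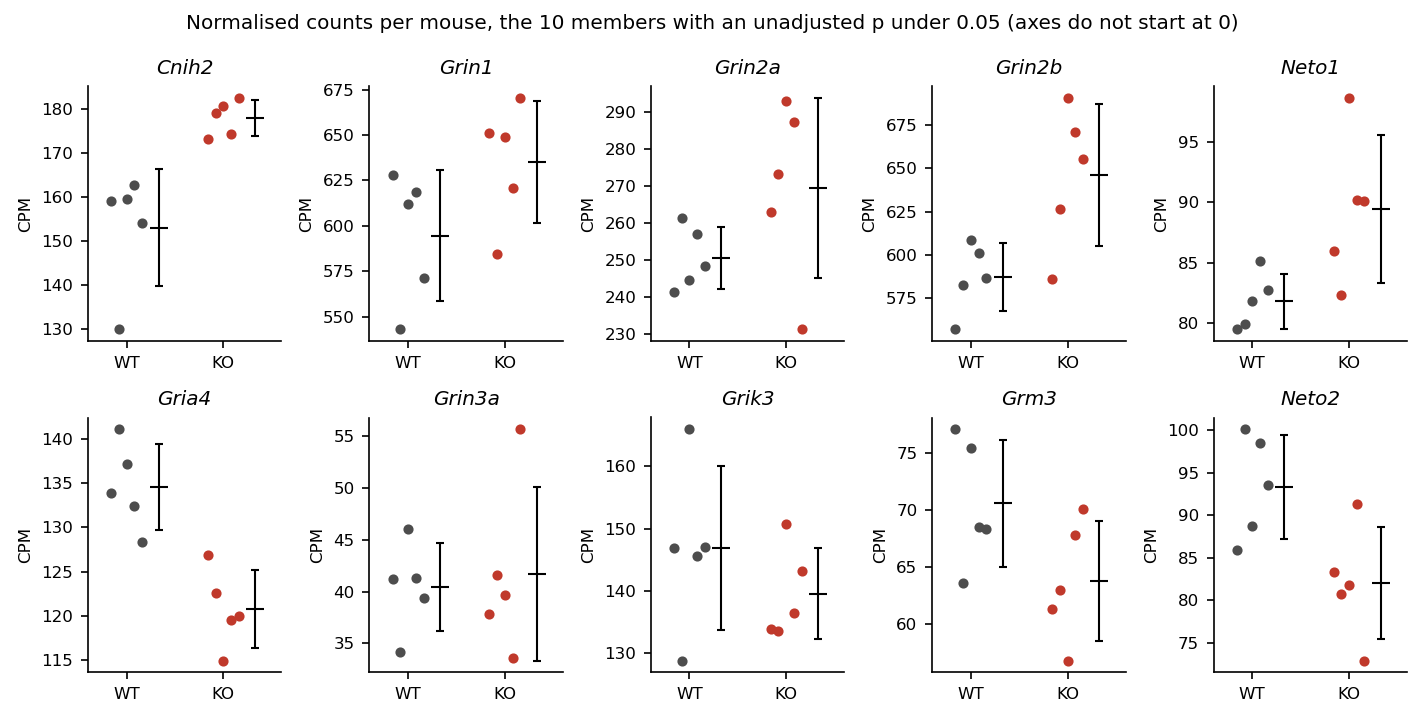
Normalised counts in CPM (vertical axes, which do not start at 0) in each of 5 WT (grey) and 5 KO (red) mice for the 10 genes with an unadjusted p under 0.05, in order of mouse number, with the mean and SD beside the points. *Cnih2* and *Gria4* are free of overlap, and single mice such as KO mouse 5 in *Grin2a* and *Grin3a* stand away from their group.

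Without KO mouse 3, whose Y-linked counts went against its label, 0 of the 32 genes were called and 7 had an unadjusted p under 0.05, against 8.63% of all genes tested. *Cnih2* then had a log2 fold change of 0.18 (edgeR adjusted p = 0.258) and *Gria4* of -0.11 (edgeR adjusted p = 0.43). *Grin1*, *Grin2a* and *Grin2b* were at 0.09, 0.11 and 0.08, *Neto1* and *Neto2* at 0.08 and -0.14, and *Grm3*, *Grik3* and *Grin3a* at -0.14, -0.14 and -0.11. None of the 10 changed sign.

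Ratios of subunits within a library need no scaling between libraries. The count ratio of *Grin2a* to *Grin2b* had a mean and SD of 0.418 ± 0.0375 in the 5 KO mice and 0.427 ± 0.0170 in the 5 WT mice, which overlapped. The ratio of *Gria1* to *Gria2* was 0.471 ± 0.0361 in KO and 0.422 ± 0.0506 in WT mice, with overlap and with WT mouse 2 lowest at 0.334. The ratio of *Grik5* to *Grik2* was 4.32 ± 0.349 in KO and 4.13 ± 0.342 in WT mice, again with overlap.

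**Figure D4:**
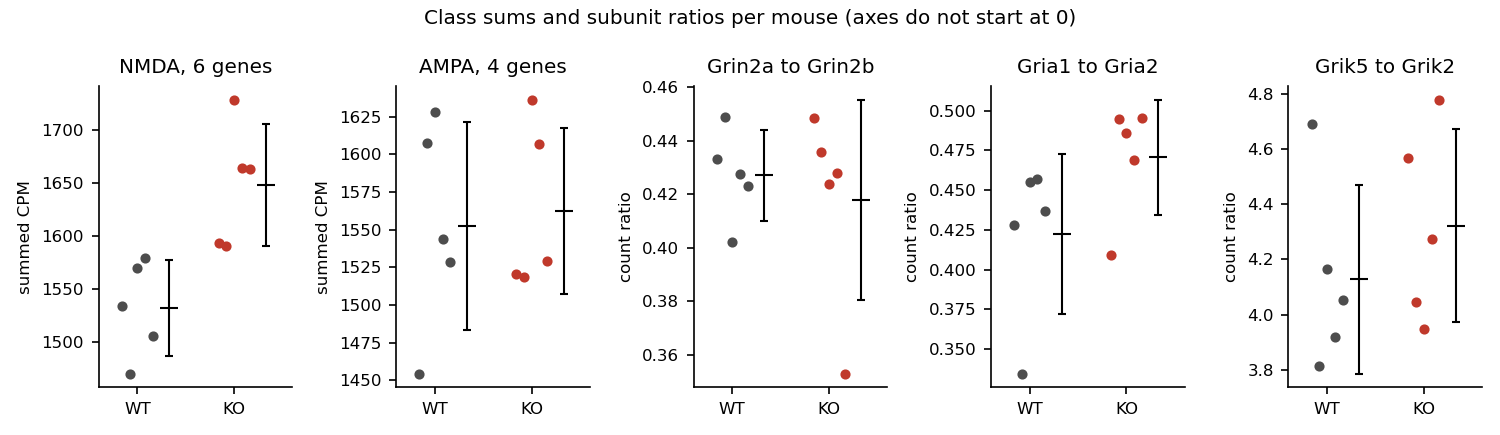
Summed CPM of the NMDA and AMPA receptor genes and count ratios of 3 subunit pairs (vertical axes, which do not start at 0) in each of 5 WT (grey) and 5 KO (red) mice, with the mean and SD beside the points. With TMM scaling the NMDA sums of KO mice start at 1590.4 CPM, above the highest WT mouse at 1579 CPM. Without it KO mouse 1 falls below WT mouse 4 in this sum. The other 4 panels overlap.

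Genes that work with these receptors were listed in 6 groups of 71 genes, of which 68 were tested. *Grin3b*, *Grm6* and *Cacng1*, with 55, 6 and 17 counts in all, did not pass the filter. One of the 68, *Lrrtm1*, passed the adjusted threshold, 1.47% against 0.844% of all genes. At an unadjusted p under 0.05, 14 were higher, 20.6% against 5.51% of all genes, and 3 lower, 4.41% against 5.1%. *Lrrtm1* encodes a postsynaptic adhesion protein that binds neurexins and holds AMPA receptors at synapses. It was at 48.1, 48.9, 51.8, 54.9 and 48.0 CPM in WT and at 60.6, 68.2, 63.7, 57.6 and 62.6 CPM in KO mice 1 to 5, without overlap. It was 62.5 ± 3.90 CPM in KO against 50.3 ± 2.98 CPM in WT mice (SD, n = 5 each), a log2 fold change of 0.27 (SE 0.04, edgeR adjusted p = 0.00799). Without WT mouse 3 its edgeR adjusted p was 0.0931, and without WT mouse 5 it was 0.0863. It was 0.086 with the replicate block, 0.138 among the mice with a RIN of 9.5 or above and 0.0965 by limma. The log2 fold change of *Lrrtm1* was 0.31, 0.36 and 0.26 in these fits in turn. They called 24, 1 and 8 of all genes tested, against 121 in the main fit.

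By group, the secreted and trans-synaptic organizers had 5 of 15 tested genes higher and 0 lower at an unadjusted p under 0.05, and the scaffolds and kinases 6 of 17 higher and 0 lower, among them *Camk2a*, the kinase of synaptic plasticity (log2 fold change 0.12, edgeR adjusted p = 0.0684). The other AMPA receptor auxiliary and assembly genes had 2 of 17 higher and 1 lower. *Shisa6* and *Shisa7* were at 0.24 and 0.11 and *Olfm3* at -0.19 in log2 fold change, and none was called. The 3 RNA editing enzyme genes had log2 fold changes of -0.06 to -0.01.

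Of 14 genes of glutamate synthesis, release and uptake, 1 was higher and 2 were lower at an unadjusted p under 0.05. *Gls2*, a glutaminase gene that shares 2.79% of its exons with *Spryd4* on the other strand, was at 31.8, 30.2, 30.3, 28.4 and 28.2 CPM in WT and at 25.9, 23.9, 25.6, 25.9 and 22.2 CPM in KO mice 1 to 5. The groups did not overlap, and the edgeR adjusted p was 0.0976. The vesicular transporter gene *Slc17a7* was at 1668 ± 127 CPM in KO and 1559.8 ± 114 CPM in WT mice (edgeR adjusted p = 0.658), and the astrocytic uptake gene *Slc1a2* at 3435 ± 203 and 3549 ± 184 CPM (edgeR adjusted p = 0.695).

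Marker genes of the cell types in the tissue were followed beside these values. None of the marker genes of the 8 lists was called. The 6 markers of glutamatergic neurons summed to 5702 to 6621 CPM in KO and 5347 to 6023 CPM in WT mice, with 4 of 6 above 0 in log2 fold change. *Neurod2* and *Neurod6* were below 0. Most of this sum is *Camk2a*, with means of 4073 CPM in KO and 3742 CPM in WT mice, which is also among the scaffolds and kinases. The 6 GABAergic neuron markers summed to 775 to 870.5 CPM in KO and 835 to 928 CPM in WT mice, with 5 of 6 below 0 and *Pvalb*, *Sst* and *Vip* at an unadjusted p under 0.05. Striatal markers, 7 of the 8 listed, had 5 above 0 in log2 fold change. Astrocyte markers summed to 1773 to 2176 CPM in KO and 1779 to 1955 CPM in WT mice, with 5 of 6 above 0. The ranges were 308 to 394 and 296 to 336 CPM for oligodendrocyte precursors, 5953 to 8619 and 6160 to 7747 CPM for oligodendrocytes, 229 to 255 and 212 to 243 CPM for microglia, and 151 to 166 and 146 to 171 CPM for endothelial cells, in KO and WT mice, so that the genotypes overlapped for each of the 8 types. The part of these cell types in the values of the receptor genes was not tested.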

How the data were processed

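RNA-seq of the PFC was done on 5 KO and 5 WT mice, and genotype and replicate number were taken from the labels. The authors aligned reads to mm10 with STAR (2.7.1a in the submitters' processing notes) and counted reads with a unique position by HTSeq (0.9.1 in the same notes, intersection-strict) over protein-coding exons of Gencode M21. What they deposited are raw counts of 22000 genes in 10 libraries. Which strand setting HTSeq had is not given in the sources used here.

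Counts were scaled by TMM. The test was the quasi-likelihood test of edgeR (4.0.16, run in R 4.3.3), with genotype and, from sva, 3 surrogate variables (version 3.50.0, log2(CPM + 1), seed of 1), for the 14344 genes kept by its filter on low counts, with Benjamini-Hochberg adjustment at 0.05. Surrogate variables are weights per mouse that stand for unrecorded differences between libraries. CPM other than the floor are TMM-scaled, and sums, ratios and overlaps are descriptions without a test. Exon lengths and positions come from Gencode M21 on GRCm38. No 2 libraries agreed within sampling noise. Scripts were tested on simulated data. Alternatives were DESeq2 (1.42.0), limma (3.58.1), other numbers of surrogate variables, RIN, a striatal marker score or the replicate number in their place, other scaling and filters, the mice whose RIN was at least 9.5, and leaving out each mouse.

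The genes, the lists of related genes and the markers were chosen with earlier results of these data known, and support nothing beyond the values given. Values per mouse are given for genes that passed the adjusted threshold, did not overlap, had an unadjusted p under 0.05 or led their class in level, and among related genes for those called or without overlap. *Slc17a7* and *Slc1a2* are always named. Other genes are named as examples chosen after their values were seen. Values of some single genes of these lists are not reported here.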

Additional observations from a re-analysis of the deposited data

Results flagged for a closer look

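In 96 sets of 5 mice, each a gene, class sum or subunit ratio in 1 genotype, the highest or lowest mouse stood apart from the other 4 by Dixon's test at its 95% critical value of 0.71 in 8. Chance alone gives about 1 in 20. KO mouse 5 and WT mouse 2 each account for more than 1 of these.

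KO mouse 5 was highest for *Grik5*, at 292 CPM against 242 to 253 CPM in the other KO mice. It was also highest for *Grm2*, at 83.9 CPM against 51.3 to 57.7, and so for the summed group II metabotropic genes, at 154 CPM against 114 to 120.3. Its count ratio of *Grin2a* to *Grin2b* was lowest, at 0.353 against 0.424 to 0.449. This library was the deepest, with 51231439 counts, had the lowest RIN of the 10, at 8.1, and lay furthest on average from the other profiles, at a distance of 32.4 on the log2 scale against 25.3 to 28.8 for the others.

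WT mouse 2 was lowest for *Cnih2*, at 130.0 CPM against 154 to 163 CPM in the other WT mice, and for the count ratio of *Gria1* to *Gria2*, at 0.334 against 0.428 to 0.457. It was the lowest WT mouse for 16 of the 32 genes, had 47343536 counts and a RIN of 9.7.

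*Cacng5* in KO mouse 2 was at 10.2 CPM against 6.80 to 7.77 CPM in the other KO mice. *Grm4* in WT mouse 4 was at 27.3 CPM against 31.4 to 32.7 CPM in the other WT mice. What set these mice apart was not tested.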

How the results depend on the processing

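Over 21 alternatives, 10 of which leave out 1 mouse, none of the 32 genes was called in 18. DESeq2 called 1 (*Cnih2*, log2 fold change 0.18, adjusted p = 0.0307), and leaving out each mouse gave 0 to 1 (*Grin2a* without KO mouse 1, *Cnih2* without WT mouse 2). Over all genes tested, DESeq2 called 229, and the fits without KO mouse 1 and without WT mouse 2 called 59 and 148. The main fit called 121. The count at an unadjusted p under 0.05, 10, was 4 with limma and 6 to 12 when each mouse was left out. The share of all genes tested under 0.05 was 10.6% in the main fit. It was 9.66% with limma and 8.63% to 12.3% without single mice. Genes without overlap, 2, were the same 2 with other scaling, *Gria4* and *Cnih2*. Without single mice they were 2 to 4. Leaving out a mouse cannot bring overlap to *Gria4* or *Cnih2*, beyond small changes in scaling, so these counts are no check on them. Calls among related genes, 1, were 3 with DESeq2 and 0 with limma, with the replicate block or with a RIN of 9.5 or above alone, and 0 to 3 without single mice. With these 3 settings in turn *Lrrtm1* had an adjusted p of 0.0965, 0.086 and 0.138, and 8, 24 and 1 of all genes tested were called. With the replicate block in place of surrogate variables, 0 of the 32 genes were called and 8 had an unadjusted p under 0.05, against 8.9% of all genes. Same-numbered KO and WT mice are different mice whose deviations from the group means correlated at -0.11 to 0.17, so the numbers were not taken as a pairing. The cause of these changes was not tested.

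Of the 32 genes, 20 kept their sign throughout. The other 12, none of them called and at most 0.12 in size, changed it in 53 of 672 values, at most to 0.114 in size. Without surrogate variables the log2 fold changes were *Gria2* -0.0225, *Grin2d* 0.00217, *Grin3a* 0.0485, *Grm2* 0.0745 and *Cacng7* -0.0257, and the NMDA median was 0.0720. With 2 surrogate variables *Gria2* was at -0.00193 and *Cacng7* at -0.00926. With RIN as a covariate *Gria2* was at -0.0223, *Grin2d* at 0.00467, *Grin3a* at 0.0359, *Grm2* at 0.0542 and *Cacng7* at -0.0232. With the striatal marker score *Gria2* was at -0.0152, *Grin3a* at 0.0311, *Grm2* at 0.0657, *Grm7* at 0.0159, *Cacng4* at -0.00114 and *Cacng7* at -0.0352. With the replicate block *Gria2* was at -0.0205, *Grin2d* at 0.0107, *Grin3a* at 0.0323, *Grik2* at 0.000204, *Grm2* at 0.0527 and *Cacng7* at -0.0253. With a RIN of 9.5 or above alone and no surrogate variables *Gria2* was at -0.0111, *Gria3* at -0.0227, *Grin2d* at 0.114, *Grik1* at 0.0887, *Grik2* at 0.00525, *Grm7* at 0.00691 and *Cacng7* at -0.0245. With total count scaling *Gria3* was at -0.00567 and *Cacng7* at -0.00208. Leaving out each mouse gave ranges of -0.0196 to 0.157 for *Gria1*, -0.0119 to 0.0644 for *Gria2*, -0.0521 to 0.0423 for *Gria3*, -0.186 to 0.0102 for *Grin2d*, -0.0143 to 0.0498 for *Grik5*, -0.056 to 0.0107 for *Grm7*, -0.0427 to 0.053 for *Cacng4*, -0.0108 to 0.059 for *Cacng7* and -0.14 to -0.0517 for the group III median.

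Each of the 32 genes had at least 205 counts in each library.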

Other observations

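Mice of the same genotype differed little for most of the 32 genes. The coefficient of variation over 5 WT mice had a median of 6.97% and ran from 2.78% to 23.7%, and over 5 KO mice it had a median of 7.14% and ran from 2.27% to 22.9%. *Cnih2* had the narrowest spread of the 32 in KO mice, 2.27%, and 8.67% in WT mice.

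Of the 32 genes, 3 lie on chromosome 9 with *Zbtb16*. *Grik4* is 5.71 Mb from it, *Gria4* 43.9 Mb and *Grm2* 57.8 Mb, and their log2 fold changes were 0.10, -0.14 and -0.06.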
